A study of Mus musculus with 4 samples.

Results

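The p53 pathway genes described here are 32 genes of the 26286 in the count table. They are the p53 gene itself, 3 regulators of its protein and 28 genes known as its targets. They were chosen by name from a fixed list and matched by gene symbol. Tigar and Pidd1 carry the older names 9630033F20Rik and Lrdd in the deposited tables, and Eda2r is in the count table only. All 32 had enough reads to be tested.

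The study profiled RNA of LSK cells sorted from bone marrow of C57BL/6 mice, a lineage-negative fraction, positive for Sca-1 and Kit, in which blood stem cells and multipotent progenitors are found. It compared 2 libraries whose genotype label is Hhex deletion with 2 libraries labelled wild-type. The homeobox gene Hhex encodes a DNA-binding regulator, which the title of the series links to repression of Cdkn2a. The labels give neither the deleting allele or Cre driver nor the age or number of mice, so each p-value reflects no more than how far these 4 libraries lie apart, which may be technical.

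The p53 protein is a transcription factor held at low activity by Mdm2, which marks it for degradation, and by Mdm4, which blocks its activation domain. ARF, made from one reading frame of Cdkn2a, binds Mdm2 and frees p53. Active p53 then raises genes that halt the cell cycle, repair DNA, limit oxidants or start apoptosis, and it raises Mdm2 itself as negative feedback. In blood stem cells, p53 is known for its part in quiescence and in the response to DNA damage. The question asked of the data was whether its target genes were higher in the libraries in which Cdkn2a was higher.

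Several facts of the libraries bear on what follows. Total counts lay between 27871827 and 29501591 per library. Levels are given as CPM, the usual scaling of counts to library size, here with TMM factors, on which 3 counts correspond to 0.0995 to 0.109 CPM. Hhex stood at 179 and 188 CPM where the label says Hhex deletion and at 127 and 115 CPM where it says wild-type. A count over a whole gene takes in undeleted exons and does not check the deletion, so directions refer to libraries as labelled. Of the libraries labelled Hhex-deleted, replicate 1 held 2662 CPM of Xist and 0.343 CPM of the Y-linked gene Ddx3y. In the other 3 libraries Xist stood at 1.89 to 2.66 CPM and Ddx3y at 124 to 138 CPM, so sex differs between that library and the rest. Kit stood at 566 to 698 CPM and Ly6a, which encodes Sca-1, at 20.7 to 42.5 CPM, so the genes of the sort were present in every library. Of 10 genes of the gate and its subsets, Cd48 alone passed edgeR's test (log2 fold change 0.63 ± 0.09 SE, adjusted p = 0.0239), and its call was lost when either wild-type library was left out (adjusted p = 0.0653 without replicate 1, 0.137 without replicate 2). At an unadjusted p under 0.05, 4 of the 10 were higher (Cd48, Cd27, Ly6e and Slamf1) and 0 lower, against 7.59% and 8.23% of all tested genes, and 9 of the 10 had a fold above 1.

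Sequence shows what part of the list carries a p53 motif close to the gene start. RefSeq promoter windows of mouse build GRCm38.p6, from 250 bases before to 50 bases after a gene start, were found for 25 of the 32 genes. They were searched for exact matches to the p53 half-site consensus, a 10-base palindrome that reads the same on both strands. Of these 25 genes, 11 (44%) held at least 1 match, against 8.2% of 10897 tested genes with a window and 9.6% of 27025 RefSeq genes with a window. A full site, a pair of half-sites at most 13 bases apart, was found in none of the 31 member windows and in 0.0731% of all 32851 windows. The matches are printed below because they mark the members, Mdm2 and Ccng1 among them, with a half-site match close to a gene start. Whether p53 binds at these matches was not tested. Each is read 5′ to 3′ on the strand of the gene, with the half-site in capitals and 10 bases to either side.
Mdm2, chr10:117710925-117710954, minus strand: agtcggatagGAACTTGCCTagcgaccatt
Trp53, chr11:69580274-69580303, plus strand: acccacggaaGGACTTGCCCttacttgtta
Ppm1d, chr11:85311112-85311141, plus strand: gggcgggggcGAGCTTGCTCttcttgactc
Ccng1, chr11:40755452-40755481, minus strand: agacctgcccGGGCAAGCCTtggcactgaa
Gtse1, chr15:85859945-85859974, plus strand: gagcaagttgGGGCTTGCCTctgacttgcc
Sesn1, chr10:41887256-41887285, plus strand: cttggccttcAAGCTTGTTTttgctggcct
Aen, chr7:78895927-78895956, plus strand: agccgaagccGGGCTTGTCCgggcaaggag
Ei24, chr9:36797325-36797354, minus strand: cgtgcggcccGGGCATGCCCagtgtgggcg
Gadd45a, chr6:67037428-67037457, minus strand: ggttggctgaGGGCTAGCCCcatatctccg
Polk, chr13:96519399-96519428, minus strand: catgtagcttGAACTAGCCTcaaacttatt
Rps27l, chr9:66946193-66946222, plus strand: ctttgggctcGGGCTTGCTTtccttcaggc
Rps27l, chr9:66946296-66946325, plus strand: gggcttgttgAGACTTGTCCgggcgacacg
The match of Mdm2 begins 186 bases before its start and that of Ei24 10 bases before its start. Among the 11 genes with a match, fitted log2 fold changes ran from -0.16 to 0.37 with a median of 0.06, and none passed the test described next. Over the 14 genes whose windows hold no match they ran from -1.07 to 0.65 with a median of 0.16, and 1 passed.

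The second set shown is the windows of Dram1 and Tigar, since these genes had the lowest fold changes of the list. They are printed whole in lower case because neither holds a half-site match, which says nothing of p53 binding elsewhere in the genes.
Dram1, chr10:88357026-88357325, minus strand: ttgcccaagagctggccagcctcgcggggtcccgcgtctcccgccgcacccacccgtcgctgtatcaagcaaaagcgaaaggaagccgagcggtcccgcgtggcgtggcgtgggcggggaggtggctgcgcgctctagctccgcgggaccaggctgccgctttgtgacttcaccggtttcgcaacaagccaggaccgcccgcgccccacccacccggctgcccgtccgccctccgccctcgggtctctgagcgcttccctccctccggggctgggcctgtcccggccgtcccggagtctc
Tigar, chr6:127109503-127109802, minus strand: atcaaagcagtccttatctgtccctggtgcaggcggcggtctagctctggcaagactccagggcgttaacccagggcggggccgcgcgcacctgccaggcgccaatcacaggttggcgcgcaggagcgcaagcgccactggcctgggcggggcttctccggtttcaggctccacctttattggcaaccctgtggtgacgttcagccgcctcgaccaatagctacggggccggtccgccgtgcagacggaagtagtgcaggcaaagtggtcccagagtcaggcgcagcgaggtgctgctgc

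No p53 pathway gene was called higher and 1, Dram1, was called lower in the libraries labelled Hhex-deleted. The test was edgeR's quasi-likelihood test with Benjamini-Hochberg adjustment over 14912 genes and a threshold of 0.05, which called 1.48% of all tested genes higher and 1.12% lower. At an unadjusted p under 0.05, 4 of the 32 genes were higher (Tap1, Trp53inp1, Ccng1 and Sesn1) and 2 lower (Dram1 and Tigar). Over all tested genes 7.59% were higher and 8.23% lower at that level. In 12 members both libraries labelled Hhex-deleted lay above both wild-type libraries, and in 3 both lay below, against 21.9% and 23.7% of all tested genes. The fitted fold change was above 1 for 22 members (68.8%) and below 1 for 10, against 48.8% of all tested genes above 1. The median log2 fold change was 0.09 against -0.01 over all tested genes. DESeq2 called 2 members higher (Tap1 and Trp53inp1) and 2 lower (Dram1 and Tigar), limma-voom none higher and Dram1 lower.

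The width of the intervals sets what these data can show. For 25 of the 32 genes the upper bound of the 95% interval of the fold change was below 2-fold, and for 20 it was below 1.5-fold (85.3% and 73% of all tested genes). The 7 genes whose interval reached 2-fold were Plk2, Trp53inp1, Fas, Eda2r, Perp, Phlda3 and Gadd45a. For these 7 the intervals do not exclude a 2-fold rise.

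**Figure D1:**
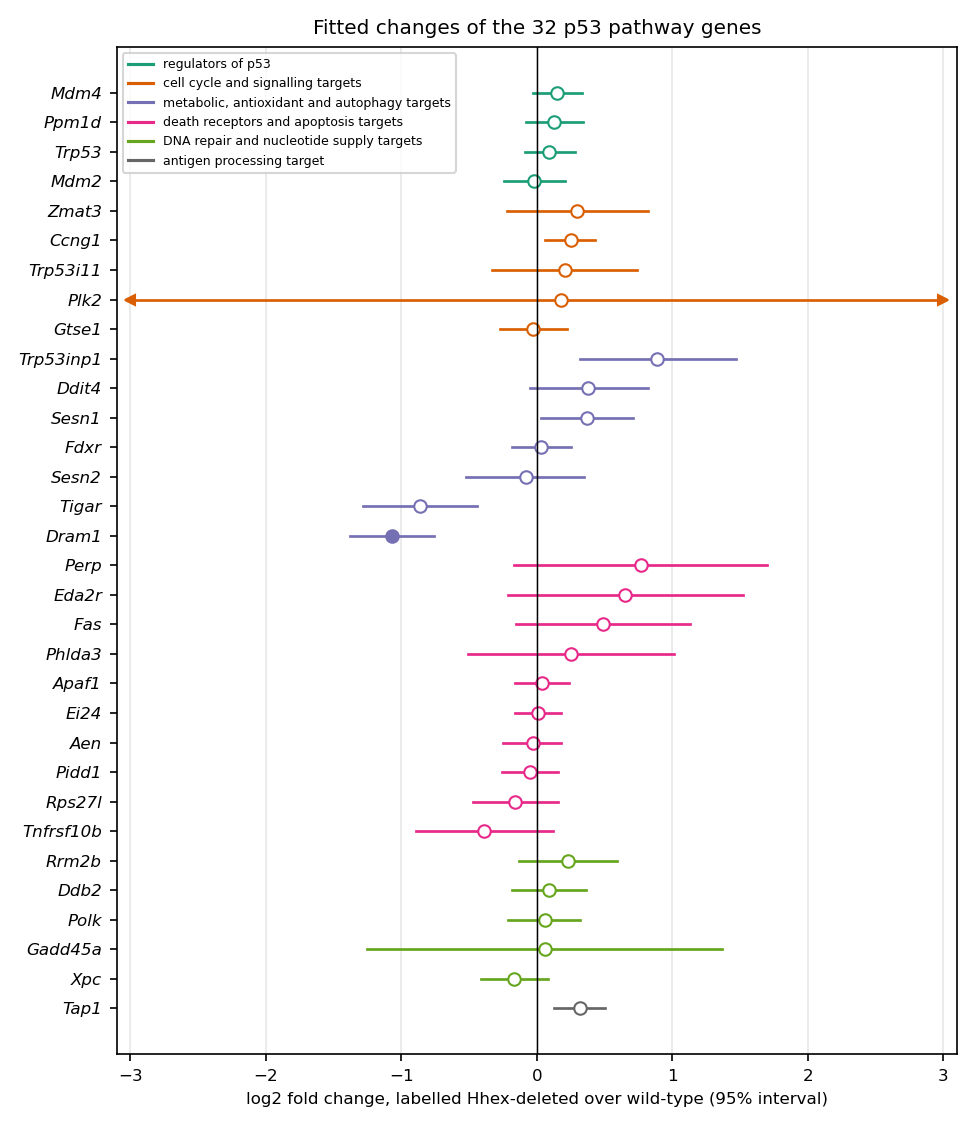
Fitted log2 fold change of each of the 32 genes (labelled Hhex-deleted over wild-type, horizontal axis) with its 95% interval, grouped by role and coloured accordingly. A filled circle passed edgeR's test (Dram1), open circles did not, and the arrowheads mark the interval of Plk2, which runs beyond the axis.

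The first group is p53 and its regulators, none of which passed the test. Trp53 had 199 and 188 CPM (labelled Hhex-deleted, given first here and below) against 181 and 182 CPM (wild-type). The groups did not overlap, but the fold was 1.06 (95% interval 0.937 to 1.21). Mdm2, both the brake on p53 and a target of it, stood at 99.3 and 89.6 CPM against 101 and 90.5 CPM. Its groups overlapped almost fully and its fold was 0.988 (95% interval 0.845 to 1.16, edgeR adjusted p = 0.964). In both groups replicate 1 of Mdm2 lay above replicate 2, by 1.11-fold. Mdm4 stood at 131 and 130 CPM against 115 and 120 CPM, a fold of 1.11 (95% interval 0.981 to 1.25, edgeR adjusted p = 0.413). Ppm1d, a phosphatase that shuts p53 signalling off and is itself a p53 target, stood at 43.5 and 46 CPM against 42 and 39.8 CPM. Its fold was 1.09 (95% interval 0.945 to 1.27).

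Upstream, the reads of Cdkn2a numbered 30 and 27 against 1 and 2. Pooled over each group this is a CPM ratio of 17.9 (95% exact interval 5.83 to 89.5, counting error only), and edgeR's adjusted p was 0.0239. These reads are 1.03 and 0.896 CPM against 0.0365 and 0.07 CPM, and the count does not separate ARF from the other reading frame. Its call was lost when labelled Hhex-deleted replicate 2 (adjusted p = 0.0502), wild-type replicate 1 (0.105) or wild-type replicate 2 (0.123) was left out of the edgeR fit. A list of factors acting upstream of p53, such as the damage kinases Atm, Atr, Chek1 and Chek2, held 25 tested genes. Of these, Cdkn2a was the 1 gene called higher, and none was called lower. At an unadjusted p under 0.05, 3 were higher (Cdkn2a, Atm and Myc) and 0 lower, against 7.59% and 8.23% of all tested genes. The fold was above 1 in 20 of the 25 (80%), against 48.8% of all tested genes. The groups did not overlap in 12 that were higher and 1 that was lower, against 21.9% and 23.7% of all tested genes. The median log2 fold change was 0.07. Atm stood at 144 and 158 CPM against 119.5 and 129 CPM (log2 fold change 0.28 ± 0.09 SE, edgeR adjusted p = 0.189).

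Among targets that act on the cell cycle and on signalling, none passed the test. Ccng1, a cyclin G that recruits a phosphatase to Mdm2 and one of the most regular p53 targets, stood at 113 and 118 CPM against 94.5 and 99.7 CPM. Its groups did not overlap, and the fold was 1.19 (95% interval 1.04 to 1.35), with an edgeR adjusted p of 0.178. Zmat3, a zinc finger RNA-binding protein, stood at 4.25 and 4.11 CPM against 3.39 and 3.4 CPM, a fold of 1.23 (95% interval 0.861 to 1.76). Trp53i11 overlapped between groups, with 28.1 and 42.8 CPM against 28.8 and 32.7 CPM. Gtse1, which is made in G2 and moves p53 out of the nucleus, stood at 52.3 and 44.6 CPM against 49.3 and 49.4 CPM, a fold of 0.982 (95% interval 0.827 to 1.17).

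Plk2, a kinase induced by p53 and also by growth factor signals, differed widely with the replicate number. Its group fold of 1.13 had a 95% interval from 0.0101 to 126, too wide to tell a group difference. Plk2 had 438 and 59 reads in labelled Hhex-deleted replicates 1 and 2, and 381 and 32 reads in wild-type replicates 1 and 2. Replicate 1 was 7.67-fold above replicate 2 among libraries labelled Hhex-deleted and 12.4-fold above it in wild-type. Gadd45a, a growth arrest and DNA damage gene, had the same order with 30.7 and 17.6 CPM against 30.6 and 15.8 CPM. The best known target outside the list, Cdkn1a, which encodes the p21 inhibitor of cyclin-dependent kinases, had 32.6 and 16 CPM against 56.1 and 15.7 CPM. Likewise Btg2, an antiproliferative gene, had 130 and 48.9 CPM against 296 and 34.6 CPM, and the BH3-only death gene Pmaip1 8.12 and 3.25 CPM against 14.2 and 3.4 CPM. In all 5 genes both libraries numbered 1 lay above both libraries numbered 2.

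Immediate early genes, which switch on within minutes when tissue is dissociated, moved with the same number. Fos stood at 545 and 60.1 CPM against 865 and 89.3 CPM, and Egr1 at 472 and 14.7 CPM against 929 and 13.9 CPM. Of 14 such stress genes listed, edgeR called 0 between the groups (1 lower at an unadjusted p under 0.05, 1 lower by DESeq2, 0 by limma-voom). Over all tested genes, 8.23% were lower at that unadjusted level. The fold was below 1 in 13 of the 14 and above 1 in 1 (7.14%), against 48.8% of all tested genes above 1. Their median log2 fold change was -0.55, and ran from -1.76 to 1.73 with a library left out. Between replicates, 10 of the 14 were higher in replicate 1 than in replicate 2 in both groups, as were 30.8% of all tested genes. Their summed level was 3510 and 5181 CPM in the libraries numbered 1 and 649 and 748 CPM in those numbered 2. No label says what the number stands for, and the part of this difference in the values of Plk2, Gadd45a, Cdkn1a, Btg2 and Pmaip1 was not tested. None of these 5 genes passed the group test (edgeR adjusted p = 0.847 to 0.985), and their intervals were wide, from 0.421 to 2.58-fold for Gadd45a. Over the 32 p53 pathway genes as a whole, 9 were higher and 10 lower in replicate 1 in both groups.

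**Figure D2:**
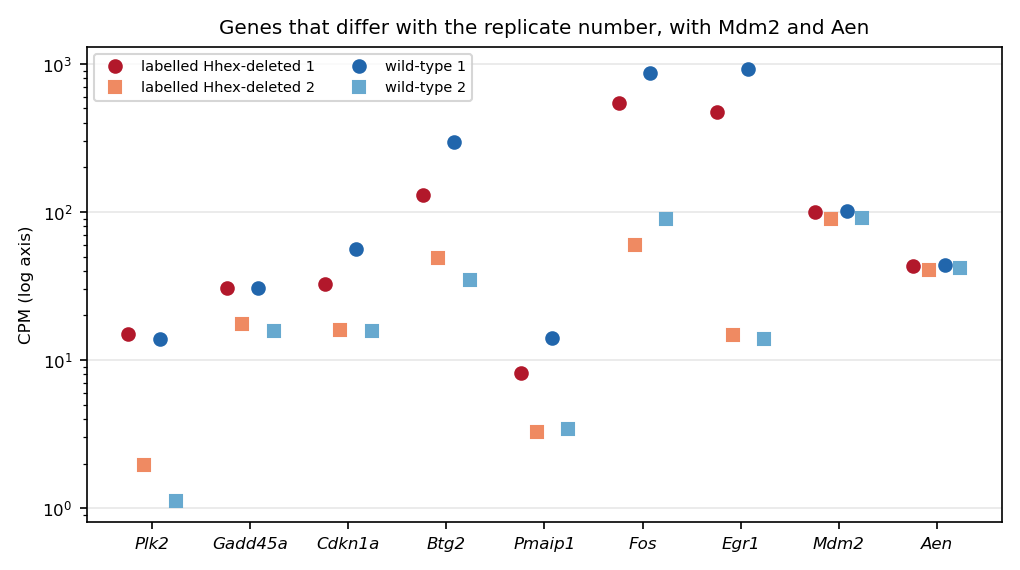
CPM of 9 genes in each library on a log axis, with circles for replicate 1 and squares for replicate 2, red shades for labelled Hhex-deleted and blue shades for wild-type. Plk2, Gadd45a, Cdkn1a, Btg2, Pmaip1 and the immediate early genes Fos and Egr1 separate widely by replicate number. Mdm2 (89.6 to 101 CPM) and Aen (40.3 to 43.6 CPM) lie close together in all 4 libraries. Both were also higher in replicate 1 in each group, by 1.11-fold for Mdm2 and 1.04 to 1.07-fold for Aen.

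The targets that act in metabolism, oxidant defence and autophagy held the largest changes of the list, in opposite directions. Dram1 (Entrez 71712), a lysosomal membrane protein that promotes autophagy downstream of p53, gave 517 and 491 reads against 891 and 1107. This was 17.7 and 16.3 CPM against 32.5 and 38.7 CPM, or 17 ± 1.01 against 35.6 ± 4.42 CPM (SD, n = 2 each), with groups far apart. Dram1 fell to 0.477 of the wild-type level (95% interval 0.385 to 0.591, log2 fold change -1.07 ± 0.13 SE, edgeR adjusted p = 0.018). Dram1 no longer passed when wild-type replicate 2 was dropped from the edgeR fit (adjusted p = 0.0843), or with limma on the deposited log2 RPKM values (adjusted p = 0.0719). The annotation of Dram1 overlaps that of Washc3, which stood at 33.6 to 34.9 CPM in all 4 libraries.

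Tigar (Entrez 319801), a phosphatase that lowers glycolytic flux and raises NADPH supply, was also lower in both libraries labelled Hhex-deleted. It stood at 13.1 and 10.2 CPM against 19.4 and 22.9 CPM, a fold of 0.552 (95% interval 0.412 to 0.738). It did not pass edgeR's test (adjusted p = 0.0653), though it did with no low-count filter (edgeR adjusted p = 0.0409), with DESeq2 (adjusted p = 0.00266) and in an edgeR fit that left out labelled Hhex-deleted replicate 1 (adjusted p = 0.038).

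Trp53inp1, a nuclear and autophagosome protein that assists p53 in cell death, had the highest fold of the list. It stood at 49.2 and 75.1 CPM against 31 and 35.9 CPM, so its groups did not overlap but its libraries labelled Hhex-deleted differed widely. The fold was 1.86 (95% interval 1.25 to 2.76) with an edgeR adjusted p of 0.138. DESeq2 called it (adjusted p = 6.9e-04), as did edgeR without labelled Hhex-deleted replicate 1 (adjusted p = 0.00985), the library with female markers.

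Sesn1, a stress protein that restrains mTORC1, stood at 119 and 155 CPM against 112 and 100 CPM, a fold of 1.29 (95% interval 1.02 to 1.64, edgeR adjusted p = 0.274). It passed without labelled Hhex-deleted replicate 1 (edgeR adjusted p = 0.0451). Its relative Sesn2 overlapped between groups, with 9.49 and 11.6 CPM against 10.4 and 12 CPM. Ddit4, an mTORC1 inhibitor raised by several stresses, stood at 28 and 36.8 CPM against 27.6 and 22.1 CPM, a fold of 1.31 (95% interval 0.969 to 1.76). Fdxr, a mitochondrial electron carrier, differed little, with 37 and 34.8 CPM against 34.9 and 35.2 CPM. Sesn2 and Ddit4 also answer to the stress factor ATF4. Of 13 genes in an ATF4 list none was called higher and 1, Cebpb, was called lower (log2 fold change -0.84 ± 0.14 SE, edgeR adjusted p = 0.0382). Over all tested genes, edgeR called 1.48% higher and 1.12% lower. At an unadjusted p under 0.05, 1 of the 13 was higher and 3 lower, against 7.59% and 8.23% of all tested genes. The fold was above 1 in 5 of the 13 (38.5%), against 48.8% of all tested genes. The median log2 fold change of this list was -0.18. Cebpb lost its call in 5 of 10 alternatives, with an adjusted p from 0.0608 (limma-voom) to 0.157 (edgeR, wild-type replicate 1 left out).

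**Figure D3:**
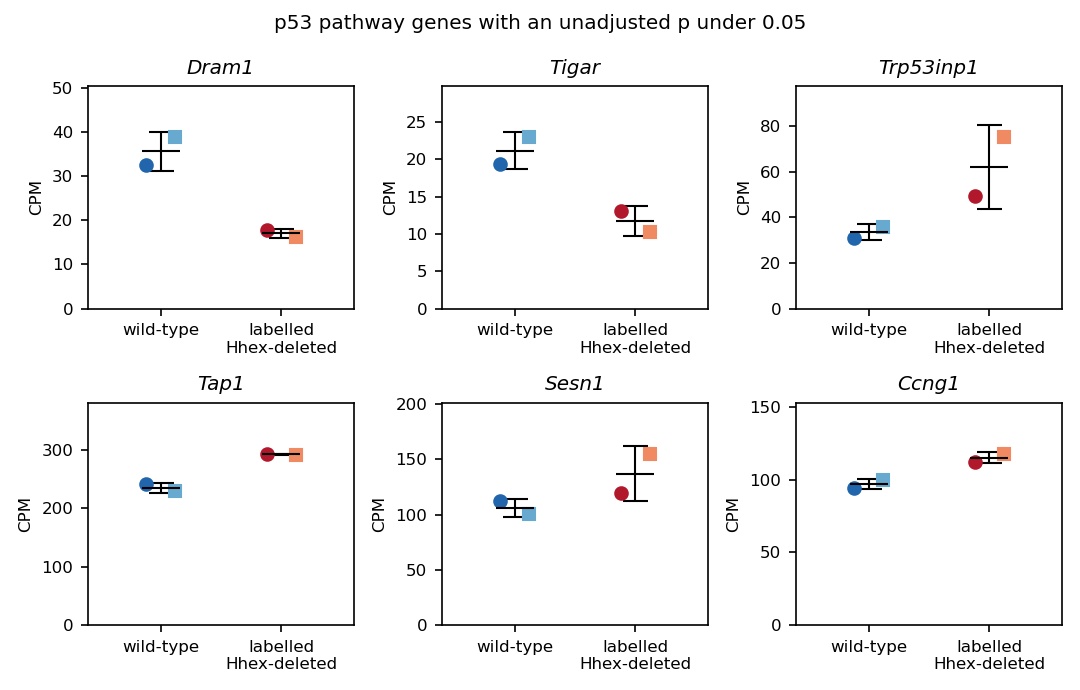
CPM of the 6 p53 pathway genes with an unadjusted edgeR p under 0.05, one panel each with its axis from 0, showing both libraries of each group with the mean (long bar) and SD (whiskers, n = 2). Dram1 and Tigar lie lower, and Trp53inp1, Tap1, Sesn1 and Ccng1 higher, in both libraries labelled Hhex-deleted, and Dram1 alone passed the adjusted test.

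The death receptor genes were expressed at low levels and none passed the test. Fas, whose ligand starts apoptosis, stood at 2.95 and 3.68 CPM against 2.12 and 2.59 CPM, a fold of 1.41 (95% interval 0.903 to 2.19). Tnfrsf10b, the mouse TRAIL receptor, lay on the other side with 3.63 and 3.65 CPM against 5 and 4.52 CPM, a fold of 0.766 (95% interval 0.538 to 1.09). Eda2r, an X-linked receptor of the same family, had 36 reads in each library labelled Hhex-deleted against 25 and 18 in wild-type, a fold of 1.57 (95% interval 0.865 to 2.86). Labelled Hhex-deleted replicate 1, with female markers, did not differ from replicate 2 in Eda2r reads.

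Within the apoptosis group, Aen, Pidd1 and Ei24 were steadier. Aen, a nuclease of apoptotic cells, stood at 43.2 and 40.3 CPM against 43.6 and 41.8 CPM, a fold of 0.978 (95% interval 0.843 to 1.13). Pidd1, the core of a caspase-2 platform, stood at 57.5 and 51.7 CPM against 56.6 and 56.5 CPM. Ei24, a membrane protein of the endoplasmic reticulum, stood at 87.3 and 89.9 CPM against 87.3 and 88.8 CPM, a fold of 1.01 (95% interval 0.892 to 1.13).

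Apaf1, the scaffold of the apoptosome, stood at 131 and 124 CPM against 119 and 129 CPM, and its annotation overlaps that of Ikbip. Phlda3, an inhibitor of Akt, stood at 2.33 and 3.78 CPM against 2.41 and 2.73 CPM, with overlapping groups. Perp, a membrane protein of desmosomes and of p53-driven death, was highest in labelled Hhex-deleted replicate 1. It stood at 9.39 and 4.64 CPM against 4.78 and 3.47 CPM, a fold of 1.7 (95% interval 0.889 to 3.25). Rps27l, a ribosomal protein paralog whose reads may be shared with copies of similar sequence, stood at 70.9 and 54.9 CPM against 71.5 and 68.7 CPM. Outside the list, Bax stood at 51.4 and 45.7 CPM against 51.5 and 49.8 CPM (log2 fold change -0.06 ± 0.09 SE). Bbc3, which encodes Puma, stood at 11.4 and 9.12 CPM against 15.2 and 8.93 CPM. For Perp, Rps27l, Bax and Bbc3, both libraries numbered 1 lay above both libraries numbered 2.

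DNA repair targets likewise did not pass. Xpc, the sensor of helix distortion in nucleotide excision repair, stood at 124 and 140 CPM against 139 and 158 CPM, a fold of 0.89 (95% interval 0.751 to 1.06). Ddb2, which finds ultraviolet lesions for Xpc and whose annotation overlaps Acp2, stood at 33.6 and 40 CPM against 34.7 and 34.5 CPM. Polk, a translesion polymerase, stood at 25.5 and 28.6 CPM against 25.1 and 26.9 CPM. Rrm2b, the p53-induced subunit of ribonucleotide reductase, stood at 19.8 and 25.4 CPM against 19 and 19.5 CPM, a fold of 1.17 (95% interval 0.913 to 1.5). Its groups did not overlap, though replicate 1 of the libraries labelled Hhex-deleted lay next to wild-type.

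Tap1 is a subunit of the pump that carries peptides into the endoplasmic reticulum for MHC class I. Of the members with a fold above 1, it had the lowest unadjusted p by edgeR (0.00525). It had 293 and 292 CPM against 241 and 229 CPM, so its libraries differed far less within groups than between them. The fold was 1.24 (95% interval 1.1 to 1.41), the edgeR adjusted p was 0.0976, and DESeq2 called it (adjusted p = 0.00379). Tap1 is also raised by interferon, so 15 antigen processing and interferon genes were set beside it. By edgeR 0 of these 15 passed, with 4 higher and 0 lower at an unadjusted p under 0.05 (7.59% and 8.23% of all tested genes). DESeq2 called 1 of them higher and limma-voom 0. All 15 had a fold above 1, with a median log2 fold change of 0.26, against 48.8% of all tested genes with a fold above 1. Their summed level was 3382 and 3676 CPM against 3142 and 2932 CPM, and its part in the value of Tap1 was not tested.

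Levels can be compared between genes per kilobase of gene length. On that scale, in CPM per kilobase averaged over the 2 groups, Rps27l (143), Trp53 (100.3) and Tap1 (89.4) were the highest of the 32 and Eda2r (0.171), Zmat3 (0.487) and Tnfrsf10b (1.32) the lowest. Mdm2 (31.4) and Mdm4 (35.5) lay side by side with Ccng1 (30.4) and Sesn1 (36.4). The genes whose interval reached 2-fold were, apart from Trp53inp1 and Gadd45a, among the 7 lowest.

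**Figure D4:**
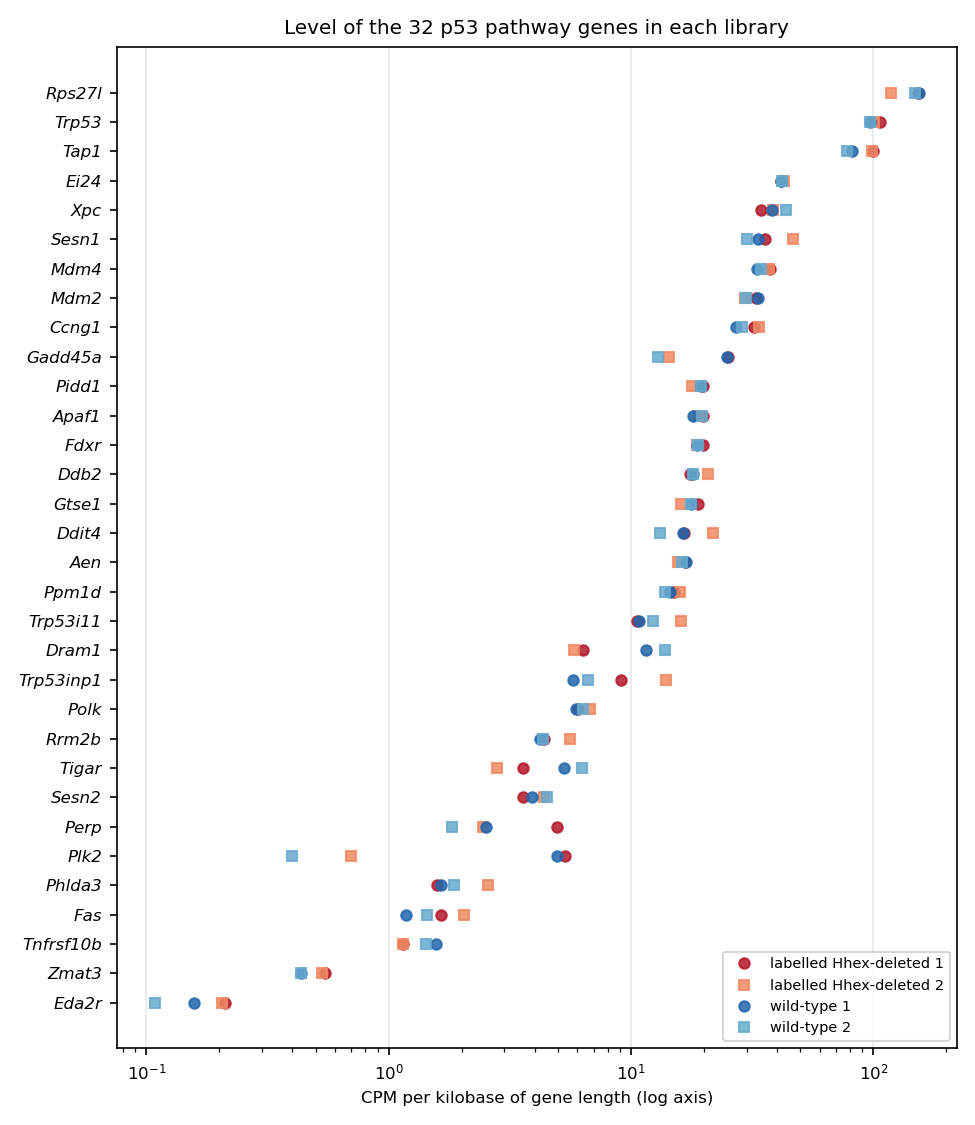
Level of each of the 32 genes in each library, in CPM per kilobase of gene length on a log axis, ordered by the mean of both groups. Most genes show 4 points close together, Plk2 and Gadd45a split by replicate number (circles against squares), and Dram1 and Tigar split by group (red against blue).

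Targets of p53 outside the list were also examined. Of 37 tested genes in a list of further targets, edgeR called none higher and 2 lower, against 1.48% and 1.12% of all tested genes. The groups did not overlap in 6 that were higher and 8 that were lower, against 21.9% and 23.7% of all tested genes. At an unadjusted p under 0.05, 3 were higher and 4 lower, against 7.59% and 8.23% of all tested genes. DESeq2 called 1 of them higher and 2 lower, and limma-voom 0 and 2. Cd82, a membrane tetraspanin, stood at 34.1 and 37.3 CPM against 60.3 and 66 CPM (log2 fold change -0.82 ± 0.09 SE, edgeR adjusted p = 0.0167). Plxnb2, a semaphorin receptor, stood at 25.2 and 34.7 CPM against 63.3 and 66 CPM (log2 fold change -1.11 ± 0.16 SE, edgeR adjusted p = 0.0305). Without wild-type replicate 2 neither passed (adjusted p = 0.0725 and 0.149), and Plxnb2 did not pass without wild-type replicate 1 (0.0903). The fold was above 1 in 15 of the 37 (40.5%) and below 1 in 22, against 48.8% of all tested genes above 1. Log2 fold changes of the list ran from -1.34 to 3.94 with a median of -0.1. The highest was that of Thbs1, which encodes the secreted protein thrombospondin-1, at 84.4 and 3.38 CPM against 2.85 and 2.87 CPM (3.94 ± 2.17 SE, edgeR adjusted p = 0.598). Its value was high in labelled Hhex-deleted replicate 1 and in no other library. Thbs1 was singled out after its values were seen.

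Active p53 also lowers cell cycle genes through p21 and the DREAM repressor complex. Of 30 such genes, among them Ccnb1, Cdk1, Plk1 and Top2a, edgeR called 0 in either direction, with 0 higher and 1 lower (Mybl2) at an unadjusted p under 0.05. The other tools, limma-voom and DESeq2, also called 0 of the 30. In 11 of the 30 (36.7%) the fold was above 1, against 48.8% of all tested genes. Fitted log2 fold changes in this list ran from -0.34 to 0.19 with a median of -0.05. Summed over the list, the level was 5603 and 5121 CPM against 5329 and 5468 CPM, so the groups overlapped.

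**Figure D5:**
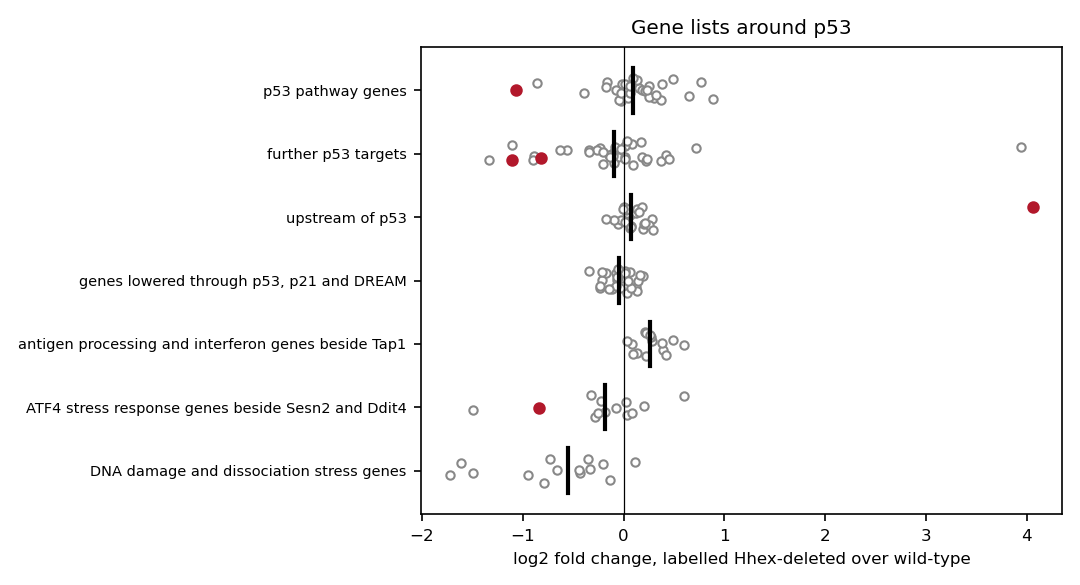
Log2 fold change (labelled Hhex-deleted over wild-type) of every tested gene in the p53 pathway list and 6 further lists, one point a gene with vertical scatter for display. Red points passed edgeR's test and the vertical bars are list medians: 0.09 for the p53 pathway genes, -0.05 for genes lowered through DREAM and 0.26 for antigen processing and interferon genes.

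Markers of other blood lineages moved between the groups, and in bulk RNA fewer cells of a type cannot be told apart from less RNA per cell. Here, rose and fell mean called by edgeR, as were 1.48% (higher) and 1.12% (lower) of all tested genes. The fold was above 1 in all 13 B lineage, 9 of 10 mast cell and basophil, and 0 of 14 granulocyte and monocyte markers. It was above 1 in 8 of 10 macrophage, 6 of 7 T and natural killer and 10 of 12 erythroid and megakaryocyte markers. Of all tested genes, 48.8% had a fold above 1. Of 13 B lineage markers 10 rose and none fell, led by Igll1, Il7r and Vpreb1, with a summed level of 181 and 236 CPM against 50.2 and 57.6 CPM. Of 10 tested mast cell and basophil markers 6 rose, led by Ms4a2, Mcpt8 and Cpa3. Summed over the 11 matched markers, the level was 1578 and 1366 CPM against 629 and 582 CPM. Of 14 granulocyte and monocyte markers 4 fell and none rose, led by Ly6c2, Clec12a and Elane, with 12690 and 9600 CPM against 18520 and 22970 CPM. Of 10 macrophage markers 5 rose and 1 fell, led by Hmox1, C1qc and Axl, with 115 and 123 CPM against 105 and 124 CPM. Of 7 tested T and natural killer markers 2 rose, Lat and Zap70. Summed over the 12 markers with or without a test, the level was 186 and 207 CPM against 71.2 and 64.7 CPM. Cd3e had no read in wild-type replicate 1, Cd8a none in labelled Hhex-deleted replicate 1, Cd8b1 none outside wild-type replicate 2, and the mast cell gene Tpsb2 none in the libraries labelled Hhex-deleted. None of 12 erythroid and megakaryocyte markers passed edgeR's test (1 higher at an unadjusted p under 0.05, 1 by DESeq2, 0 by limma-voom), with a summed level of 1176 and 1005 CPM against 920 and 918 CPM. The part of these shifts in the values of Dram1, Tigar, Trp53inp1 and Tap1 was not tested.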

How the data were processed

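Raw counts per Entrez gene were deposited by the authors for all 4 libraries, with gene length in the same table. For each library the authors also deposited log2 RPKM values of 12662 genes, whose sorted values, once gene length is added back, differed between libraries by a median of 0.00081. Subread, featureCounts, limma and mm9 are named in the submitters' processing notes. Whether strand was used, how multi-mapping reads were treated and how genes were filtered is not given in the sources used here, and only the counts carry depth.

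The counts were fitted with edgeR 4.0.16 (R 4.3.3) after filterByExpr (minimum count 10, minimum total 15) and TMM scaling, as a robust quasi-likelihood fit with group as the single term. This left 14912 genes, with a biological coefficient of variation of 16.3%. Log2 fold changes use a prior count of 0.125. The SE is the log2 fold change divided by the square root of F, and the 95% interval uses the fit's degrees of freedom. Intervals of counts cover counting error only. Alternatives used DESeq2 1.42.0, limma 3.58.1, RLE factors, no filter, a replicate block, and each library left out. The tests were tried on simulated counts.

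The members and lists were chosen with earlier results of these data known. All members are named. Of the further lists, genes past the threshold are named, up to 4 each (3 for cell type markers), with Cdkn2a, Cdkn1a, Bax, Bbc3, Pmaip1 and Btg2. Fos, Egr1, Mybl2, Washc3 and the genes of sex and sort were chosen after their values were seen. Of list entries, Tnfrsf10a and Tpsab1 were not matched.

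A marker on the B lineage list is not reported here and was left out of its count and sum.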

Additional observations from a re-analysis of the deposited data

How the results depend on the processing

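With only 2 libraries a group, the calls depend on single libraries. Among p53 pathway genes the number higher was 0 in the main analysis and 2 with DESeq2, and ran from 0 to 2 with a library left out. The number lower was 1, and became 2 with no low-count filter, 2 with DESeq2 and 0 with limma on the deposited log2 RPKM values, and ran from 0 to 2 with a library left out. The median log2 fold change of these genes stayed between 0.08 and 0.1 in every alternative. DESeq2 called 1 further p53 target, 1 antigen processing or interferon gene and 1 ATF4 list gene higher, where edgeR called 0. With limma on log2 RPKM the further p53 targets lower, the upstream genes higher and the ATF4 list genes lower all became 0, and the ATF4 count was also 0 with limma-voom. The stress list had 1 gene lower with no filter and 1 with DESeq2, against 0. With a library left out, further p53 targets ran from 0 to 1 higher and 0 to 3 lower, upstream genes from 0 to 1 higher, antigen processing genes from 0 to 1 higher, ATF4 list genes from 0 to 1 lower and stress genes from 0 to 1 lower. For each of these counts, the cause was not tested.

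The replicate numbers are shared by both groups, but no label says that they mark a pair. Deviations from group means correlated over 14912 genes at 0.33 between libraries of the same number. With the replicate block, 185 genes were higher and 130 lower, against 221 and 167. Dram1 remained the called member (edgeR adjusted p = 0.0421), upstream genes higher became 0 (Cdkn2a, adjusted p = 0.0524) and stress genes lower became 2.

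The sign of the log2 fold change turned in 15 of 32 p53 pathway genes when a library was left out, none of them called. The range was -0.09 to 0.06 for Mdm2 (0.01 with limma on log2 RPKM), -1.94 to 2.91 for Plk2, -0.15 to 0.09 for Gtse1, -0.12 to 0.48 for Trp53i11, -0.23 to 0.05 for Sesn2 and -0.01 to 0.08 for Fdxr. It was -0.13 to 0.03 for Pidd1, -0.01 to 0.03 for Ei24, -0.02 to 0.11 for Apaf1, -0.08 to 0.02 for Aen, -0.13 to 0.56 for Phlda3 and -0.35 to 0.02 for Rps27l. It was -0.39 to 0.61 for Gadd45a, -0.04 to 0.21 for Ddb2 and -0.02 to 0.14 for Polk. Outside the list it was -1.2 to 0.64 for Cdkn1a, -0.15 to 0.03 for Bax, -0.55 to 0.2 for Bbc3, -1.43 to 0.74 for Pmaip1 and -1.76 to 1.36 for Btg2.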
